A study of Oryza sativa Japonica Group with 17 samples.

Results

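Constitutive i-motif (iM) regions are defined here as parts of the rice genome in which an iM peak was called in all 5 conditions of the series. For each condition, common peaks were taken as the peaks called against input that overlapped a peak called against IgG by at least 1 bp. The common peaks of the 5 conditions were joined into 113086 union regions wherever they overlapped by at least 1 bp, and 30100 of these regions (26.6%, 95% Wilson interval 26.4 to 26.9) had a common peak in every condition. The members were chosen by the measured peak calls themselves, so the presence, fold, width and rank of their peaks are given as descriptions, with no test.

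iMs are folded non-B DNA structures of C-rich strands, held together by pairs of a protonated and an unprotonated cytosine. Acidic pH favours this pairing, and iMs can also form at neutral pH in some sequences. Methylation of cytosine is known to alter iM stability, and both pH and methylation were varied in this study.

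In iM-IP-seq, fragmented genomic DNA was denatured, re-associated in a buffer and pulled down (IP) with iMab, an antibody that binds iMs. The 4 treated conditions were hypermethylated DNA at pH 5.5 and pH 7.0 (purified DNA treated with the methyltransferase M.CviP I) and demethylated DNA at pH 5.5 and pH 7.0 (from seedlings kept for 5 days in 80 µM zebularine, which inhibits DNA methyltransferases). The control was CK at pH 7.0, genomic DNA labelled untreated. All DNA came from pooled seedlings of Nipponbare, a japonica cultivar, and was refolded in vitro, so the regions describe refolded naked DNA and not nuclei. CK at pH 5.5 was not analysed here, so no region was required to have a peak in untreated DNA at pH 5.5.

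The 2 IP libraries of each condition were merged by the authors before peak calling, so each value below describes 1 merged library and no replicate error could be given. The mean coverage of the merged IP was 9.35 fragments in hypermethylated DNA at pH 5.5, 11.4 at pH 7.0, 7.99 in demethylated DNA at pH 5.5, 14.4 at pH 7.0 and 12.3 in CK. The narrowest peak in these lists, which the peak caller sets from the fragment length, was 153, 199, 121, 206 and 168 bp wide in the same order, so peak widths and summit heights also carry a difference in fragment length. The extraction text of the labels gives pH 5.5 buffers for every sample, and the pH 7.0 groups follow the sample titles. The descriptions of the demethylated pH 7.0 IPs name a hypermethylated peak list. In the list used for them, the input level across constitutive regions ranked with that of demethylated DNA at pH 5.5 (Spearman rho 0.73) more closely than with that of hypermethylated DNA at pH 7.0 (rho 0.25). The labels used here name 1 input library for hypermethylated DNA and 1 for demethylated DNA. They do not say which library served as input for CK, so the input level of CK given below is the control level recovered from its input-called list. Its rho with the input level of the treated lists was between 0.06 and 0.08. The library itself was not identified.

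Constitutive regions made up a minority of the iM regions but contained a large part of the peaks. Most of this part is fixed by the rule, which places at least 30100 peaks of every list in them. The numbers found were 36431 in hypermethylated DNA at pH 5.5, 31834 at pH 7.0, 34274 in demethylated DNA at pH 5.5, 32010 at pH 7.0 and 35227 in CK. They held 44.0% (43.7 to 44.4) of the 82718 common peaks in hypermethylated DNA at pH 5.5 and 47.0% (46.6 to 47.3) of 67787 at pH 7.0. In demethylated DNA they held 45.1% (44.8 to 45.5) of 75913 peaks at pH 5.5 and 43.8% (43.4 to 44.1) of 73109 at pH 7.0. In CK the share was 64.0% (63.6 to 64.4) of 55062 peaks. CK also had the smallest number of common peaks, so the rule alone gives it the largest minimum share.

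Most of the strongest peaks of every list were constitutive. Of the 1000 common peaks with the highest fold, 911 were in constitutive regions in hypermethylated DNA at pH 5.5, 924 at pH 7.0, 937 in demethylated DNA at pH 5.5, 931 at pH 7.0 and 892 in CK. Among the highest 100 the numbers were 89, 79, 96, 89 and 82. Fold is the ratio of IP coverage at the summit to the local input level, as given by the peak caller.

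The share increased steeply with fold in the treated conditions and less in CK, whose minimum share by the rule was the largest. In hypermethylated DNA at pH 7.0, 89.1% of peaks in the highest decile by fold and 11.98% of those in the lowest decile were constitutive. In demethylated DNA at pH 7.0 these values were 87.7% and 7.82%. At pH 5.5 they were 83.7% and 17.2% in hypermethylated DNA and 83.1% and 20.9% in demethylated DNA. In CK, 82.0% of peaks in the highest decile and 66.6% of those in the lowest decile were constitutive, and the lowest share of any decile was 57.8%. CK peaks of the lowest decile were thus constitutive more often than CK peaks of moderate fold (58.7% in decile 5 and 58.8% in decile 6).

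**Figure D1:**
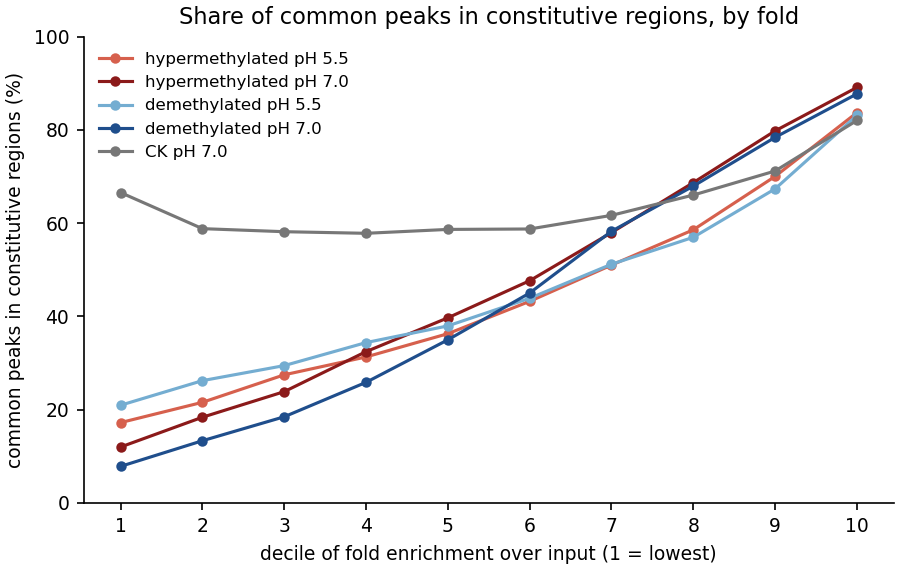
Share of the common peaks of each condition that lay in constitutive regions (vertical axis, percent), by decile of fold enrichment over input (horizontal axis, 1 is lowest). The 4 treated conditions climb steadily to between 83.1% and 89.1%, whereas CK (grey) stays between 57.8% and 82.0%.

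Constitutive regions were wide. Their median width was 764 bp (quartiles 513 and 1168 bp), compared with 569 bp for regions with a peak in 4 conditions, 426 bp in 3, 333 bp in 2 and 232 bp in 1 condition. Regions formed from more peaks are wider by construction. In all, constitutive regions covered 28.8 Mb, which is 45.4% of the bases in union regions and 7.71% of the 373 Mb spanned by the peaks of the 12 chromosomes.

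The peaks of the 5 conditions mostly met in a narrower core. At least 1 bp was covered by a peak of every condition in 29262 of the 30100 regions (97.2%), and this shared part had a median width of 256 bp (quartiles 192 and 395 bp), or 38.9% of the region. In the other 838 regions (2.78%), the peaks of the 5 conditions were linked only through one another. Exactly 1 common peak per condition was present in 21769 regions (72.3%). Hypermethylated DNA had more than 1 peak in 5369 regions (17.8%) at pH 5.5 and in 1654 (5.50%) at pH 7.0, the highest and the lowest numbers of the 5 conditions. In demethylated DNA this was so in 3729 regions (12.4%) at pH 5.5 and 1843 (6.12%) at pH 7.0, and in CK in 4319 (14.3%).

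Summits coincided closely for most pairs of conditions. When the strongest peak of each condition was used, the 5 summits of a region spanned a median of 87 bp (quartiles 39 and 350 bp), and in 10037 regions (33.3%) they lay within 50 bp. The median distance between hypermethylated DNA at pH 7.0 and CK was 19 bp, and it was also 19 bp between hypermethylated DNA at pH 5.5 and CK. The largest median distance, 43 bp, was that between demethylated DNA at pH 5.5 and at pH 7.0, and all 4 pairs that included demethylated DNA at pH 5.5 had medians between 29 and 43 bp. The 6 other pairs had medians between 19 and 24 bp. Regions with 1 peak per condition had a median span of 67 bp.

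Regions that just failed the rule most often lacked demethylated DNA at pH 5.5 or CK. Of 17583 regions with a common peak in 4 of 5 conditions, 7372 (41.9%) lacked demethylated DNA at pH 5.5 and 6272 (35.7%) lacked CK. Hypermethylated DNA was missing in 1490 regions at pH 5.5 and 1321 at pH 7.0, and demethylated DNA at pH 7.0 in 1128. In most of the regions without CK a CK peak had been called against 1 control only: 6004 of the 6272 (95.7%) overlapped such a peak, 5519 of them an IgG-called one. For demethylated DNA at pH 5.5 the reverse held, with 4445 of 7372 regions overlapping an input-called peak and 23 an IgG-called peak. Another 2907 of the 7372 had no peak of this condition in either list. The CK and demethylated pH 5.5 lists were of unequal length, with 57676 input-called against 94627 IgG-called peaks in CK, and 80882 IgG-called against 121946 input-called peaks in demethylated DNA at pH 5.5.

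Among the peaks called against input, few constitutive regions sat close to the calling threshold. The q-value threshold corresponds to a −log10 q-value of about 1.3, and the lowest value of any constitutive region was 1.31. In 379 regions (1.26%) the best peak of at least 1 condition had a −log10 q-value below 2, and 336 regions were below 2 in CK. These values are from the input-called lists. Closeness to the threshold in the IgG-called lists, which the rule also requires, was not examined. Regions missing only CK had a median lowest percentile of fold of 26.4 among their 4 conditions, and those missing only demethylated DNA at pH 5.5 had one of 27.2. The median lowest percentile of constitutive regions was 35.7 over all 5 conditions.

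To compare levels between conditions, the strongest peak of each region and condition was used. The median fold over input was 5.71 in hypermethylated DNA at pH 5.5, 6.65 at pH 7.0, 6.81 in demethylated DNA at pH 5.5, 4.99 at pH 7.0 and 3.79 in CK. CK thus had the lowest fold at the regions that every condition shared. The number of IP fragments over a summit was recovered from the deposited fold and p-value, and divided by the mean coverage of that IP to give the relative coverage. By this measure CK was the highest: the median relative coverage was 6.84 in hypermethylated DNA at pH 5.5, 7.79 at pH 7.0, 8.51 in demethylated DNA at pH 5.5, 5.96 at pH 7.0 and 8.63 in CK. Fragments were recovered at all 30100 regions in the treated conditions and at 29981 in CK, with medians of 64, 89, 68, 86 and 106 fragments in the same order.

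The low fold of CK went with a raised input level. The local input level at the summit, relative to the background of the list, had a median of 1.04 in hypermethylated DNA at pH 5.5, 1.05 at pH 7.0, 1.097 in demethylated DNA at pH 5.5, 1.09 at pH 7.0 and 2.17 in CK. It was at least 2 times the background in 169, 143, 357 and 193 constitutive regions of the treated conditions in the same order, against 15814 (52.5%) in CK. The other common peaks of CK had a median input level of 1.33. Against IgG the picture changed: the local IgG level in CK was 1.14 times the background, and the median fold over IgG was 5.15 in hypermethylated DNA at pH 5.5, 6.45 at pH 7.0, 5.06 in demethylated DNA at pH 5.5, 4.598 at pH 7.0 and 6.56 in CK. The order of CK and the treated conditions at constitutive regions therefore depended on the control, and no statement on the height of CK holds for both controls. Why the input level of the CK list was raised at these regions was not tested.

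**Figure D2:**
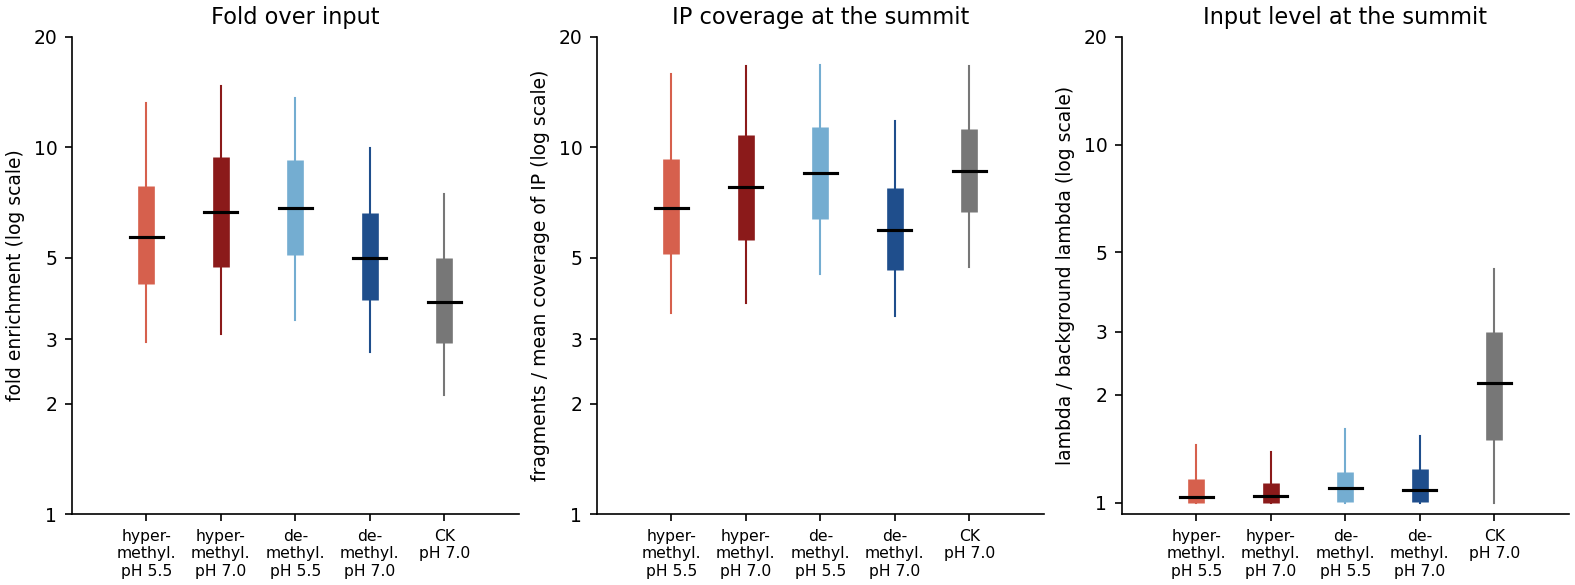
Fold over input, IP coverage at the summit over the mean coverage of the IP, and local input level over background (log scales) for the strongest peak of each constitutive region in the 5 conditions. Boxes span the quartiles, thin lines the 5th to 95th percentiles and black bars are medians; median input levels are at most 1.097 in the treated conditions, against 2.17 in CK, which has the lowest fold (3.79) and the highest IP coverage (8.63).

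Within a region, the highest relative coverage of the 5 conditions was 1.99 times the lowest in the median region (quartiles 1.70 and 2.38). Over regions, the upper quartile of relative coverage was between 1.67 and 1.92 times the lower quartile in each condition. By percentile of fold, the conditions of a region spanned a median of 46.1 points. Demethylated DNA at pH 5.5 was the highest condition in 11539 of 29981 regions (38.5%), and CK in 8150 (27.2%). Hypermethylated DNA was highest at pH 7.0 in 6492 regions (21.7%) and at pH 5.5 in 3055 (10.2%). Demethylated DNA at pH 7.0 was highest in 745 (2.48%) and was the lowest condition in 13732 (45.8%).

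Ranks were compared as percentiles of fold among all common peaks of a condition. The median percentile of constitutive regions was 73.8 in hypermethylated DNA at pH 5.5, 71.7 at pH 7.0, 70.6 in demethylated DNA at pH 5.5, 73.5 at pH 7.0 and 57.8 in CK. Being constitutive did not mean being strong everywhere. In 9734 regions (32.3%) the percentile was at least 50 in all 5 conditions, and in 2562 (8.51%) it was at least 75. In 10800 regions (35.9%) it was 25 or less in at least 1 condition, and 73 regions were at 25 or less in all 5. The 2562 uniformly strong regions had a median width of 963 bp and a summit span of 50.5 bp. When the regions were split into 4 equal groups by their lowest percentile, the weakest group had a median width of 674 bp and a summit span of 130 bp, and the strongest 906 bp and 59 bp.

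By fold over input, the order of the regions was closest among hypermethylated DNA at both pH and demethylated DNA at pH 7.0. Over the 30100 regions, Spearman's rho of fold was 0.74 between hypermethylated and demethylated DNA at pH 7.0, 0.67 between hypermethylated DNA at pH 5.5 and pH 7.0, and 0.68 between hypermethylated DNA at pH 5.5 and demethylated DNA at pH 7.0. Demethylated DNA at pH 5.5 had a rho of 0.32 with the same DNA at pH 7.0, although this pair shared its input library. Its rho was 0.41 with hypermethylated DNA at pH 7.0, 0.28 with that at pH 5.5, and 0.02 with CK. CK had equally low values by this measure, with a rho of 0.31 with hypermethylated DNA at pH 5.5, 0.34 with that at pH 7.0 and 0.39 with demethylated DNA at pH 7.0.

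The ranks of CK were closer to the others by relative coverage than by fold. Its rho by fold over input lay between 0.02 and 0.39. By relative coverage it was 0.72 with hypermethylated DNA at pH 5.5, 0.61 with hypermethylated DNA at pH 7.0, 0.54 with demethylated DNA at pH 5.5 and 0.66 with demethylated DNA at pH 7.0, over 29981 regions. By this measure demethylated DNA at pH 5.5 still had values of 0.26 to 0.40 with the other treated conditions. With fold over IgG, the rho of demethylated DNA at pH 5.5 was 0.14 with hypermethylated DNA at pH 7.0 and 0.57 with CK. These correlations are across regions of 5 merged libraries, the conditions share the genome, its base composition and mappability, and the regions are not replicates.

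**Figure D3:**
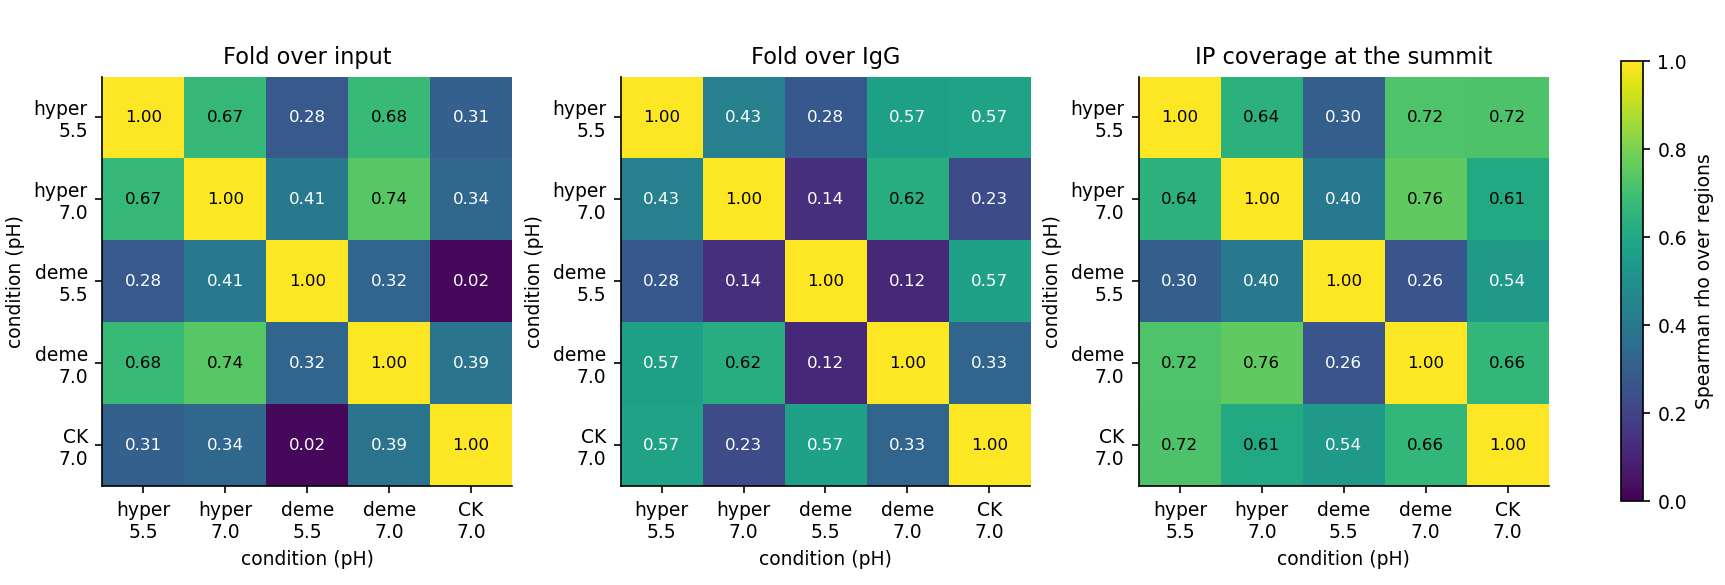
Spearman's rho over constitutive regions between the conditions (axes; hyper, hypermethylated; deme, demethylated; numbers are pH), for fold over input, fold over IgG and IP coverage at the summit. CK has low values by fold over input (0.02 to 0.39) and higher ones by IP coverage (0.54 to 0.72), whereas demethylated DNA at pH 5.5 has at most 0.41 with the other treated conditions in all 3 panels.

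To examine pH within constitutive regions, pH 5.5 was compared with pH 7.0 in each treatment. The relative coverage of hypermethylated DNA had a median of 6.84 at pH 5.5 and 7.79 at pH 7.0, with a median log2 ratio of -0.15 (quartiles -0.54 and 0.24), and 12054 of 30100 regions (40.0%) were higher at pH 5.5. Demethylated DNA had 8.51 at pH 5.5 and 5.96 at pH 7.0, with a median log2 ratio of 0.54 (quartiles 0.04 and 0.99), and 23066 regions (76.6%) were higher at pH 5.5. Over all regions with a peak at both pH, the median log2 ratios were -0.07 and 0.65, so constitutive regions moved in the direction of the lists as a whole. The median log2 ratio of fold was -0.18 over input and -0.25 over IgG in hypermethylated DNA, and 0.47 and 0.17 in demethylated DNA. Fragment length moved with pH too, since the narrowest peak was 153 bp at pH 5.5 and 199 bp at pH 7.0 in hypermethylated DNA, and 121 and 206 bp in demethylated DNA. Its part in these ratios was not tested.

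Percentiles of fold compare the place of a region within its list in place of its height. They also depend on the length of the list, because a list with more weak peaks raises the percentile of the same region, and the lists of common peaks had 82718 (pH 5.5) and 67787 (pH 7.0) entries for hypermethylated DNA, 75913 and 73109 for demethylated DNA, and 55062 for CK. The part of list length in the shifts below was not tested. The percentile at pH 5.5 minus that at pH 7.0 had a median of 1.03 points in hypermethylated DNA (quartiles -10.5 and 13.6) and -1.39 points in demethylated DNA (quartiles -22.3 and 15.1). The demethylated DNA thus reordered its regions more between pH values. In hypermethylated DNA, 3429 constitutive regions (11.4%) were at least 25 points higher at pH 5.5 and 2925 (9.72%) at least 25 points lower. Among all regions with a peak at both pH these shares were 16.2% and 10.0%. In demethylated DNA, 4408 (14.6%) were higher and 6794 (22.6%) lower, compared with 21.2% and 18.2% of all such regions.

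A pH shift in one treatment was seldom repeated in the other. Regions at least 25 points higher at pH 5.5 in both treatments numbered 489 (1.62%), and those at least 25 points lower in both numbered 486 (1.61%), compared with 764 (2.1%) and 568 (1.56%) of all 36372 regions with peaks in the 4 treated conditions. In 900 regions the percentile was higher at pH 5.5 in hypermethylated DNA and lower in demethylated DNA, and in 799 the reverse was true. Spearman's rho between both shifts was -0.07 over 30100 regions, and 0.12 when fold over IgG was used. Per the labels, the treatments share neither IP nor input libraries. With fold over IgG the numbers were 928 up and 1760 down in both.

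**Figure D4:**
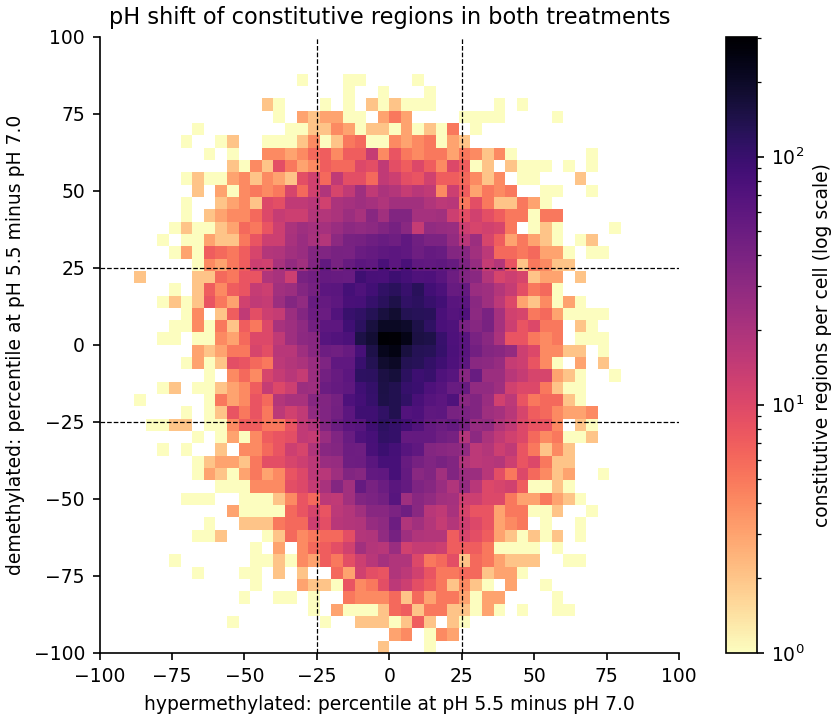
Change in the percentile of fold at pH 5.5 minus pH 7.0 for each constitutive region, in hypermethylated DNA (horizontal axis) and demethylated DNA (vertical axis); colour gives the number of regions per cell on a log scale and dashed lines mark 25 points. Spearman's rho was -0.07, with 489 regions in the upper right corner and 486 in the lower left.

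The 486 regions that were lower at pH 5.5 in both treatments had a median width of 1010 bp, and the 489 that were higher had one of 587 bp. Their summits also spanned more, with 265 bp against 103 bp, and 40 of them (8.23%) had no base in a peak of all 5 conditions, against 23 (4.70%). In CK at pH 7.0, which played no part in the choice of these regions by pH, the lower group had a median percentile of 74.3 and the higher group one of 37.5. At pH 7.0 the same groups had median percentiles of 76.9 and 35.3 in hypermethylated DNA and of 75.8 and 35.9 in demethylated DNA. These treated values entered the choice of the groups, so their difference is a product of that choice. By relative coverage in CK the order was the other way, with 6.60 in the lower and 7.57 in the higher group, and the median CK input level was 1.27 and 2.17.

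Single regions show the size of these shifts. The region chr12:16360572-16361348 (777 bp) shifted upwards the most. The summit of its strongest peak had 59 fragments (95% Poisson interval 44.9 to 76.1) at pH 5.5 and 27 (17.8 to 39.3) at pH 7.0 in hypermethylated DNA. It had 78 (61.7 to 97.4) at pH 5.5 and 50 (37.1 to 65.9) at pH 7.0 in demethylated DNA, and 79 in CK. The fold was 5.63 and 2.16 in hypermethylated DNA and 8.79 and 2.82 in demethylated DNA. Divided by the mean coverage of each IP, the fragments were 6.31 (4.803 to 8.14) at pH 5.5 and 2.36 (1.56 to 3.44) at pH 7.0 in hypermethylated DNA. In demethylated DNA they were 9.76 (7.71 to 12.2) and 3.46 (2.57 to 4.56). The region was chosen as the largest upward shift in fold, so intervals that do not overlap are no test of it. The summits of this region spanned 514 bp and no base was in a peak of all 5 conditions. In both treatments the summits at pH 5.5 and at pH 7.0 lay at opposite ends of this span. The values at the 2 pH thus come from different places in the region.

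The other 4 regions of this kind were chr11:10172653-10173502, chr11:11367927-11368596, chr7:2400173-2400688 and chr1:27191136-27191929. Their folds at pH 5.5 were between 5.26 and 7.02 in hypermethylated DNA and between 5.79 and 10.4 in demethylated DNA. At pH 7.0 they were between 2.37 and 3.16 and between 1.70 and 2.82. The summits of these regions spanned between 203 and 583 bp, so the folds at the 2 pH need not come from the same place.

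The largest downward shift was on chr6:19137031-19138403 (1373 bp). Its summit had 28 fragments (18.6 to 40.5) at pH 5.5 and 112 (92.2 to 135) at pH 7.0 in hypermethylated DNA, 34 (23.6 to 47.5) at pH 5.5 and 106 (86.8 to 128) at pH 7.0 in demethylated DNA, and 86 in CK. The fold was 2.55 and 8.24 in hypermethylated DNA, 3.29 and 5.92 in demethylated DNA and 5.38 in CK. The relative coverage was 2.99 (1.99 to 4.33) at pH 5.5 and 9.80 (8.07 to 11.8) at pH 7.0 in hypermethylated DNA, and 4.25 (2.95 to 5.94) and 7.34 (6.01 to 8.88) in demethylated DNA. It was lower at pH 5.5 in both treatments, but in demethylated DNA the scaled intervals nearly touched. This region too was chosen by its shift in fold, so the intervals are no test of it. The summits lay within 52 bp of one another.

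A similar pattern was present on chr1:878403-878957, with 27 fragments (17.8 to 39.3) at pH 5.5 and 84 (67.0 to 104) at pH 7.0 in hypermethylated DNA, and 24 (15.4 to 35.7) and 93 (75.1 to 114) in demethylated DNA. The relative coverage was 2.89 (1.90 to 4.20) and 7.35 (5.87 to 9.10) in hypermethylated DNA and 3.00 (1.92 to 4.47) and 6.44 (5.20 to 7.89) in demethylated DNA. CK had 82 fragments there, and all 5 summits fell within 30 bp. The remaining regions were chr7:17579694-17580714, chr10:12546850-12548153 and chr11:19786561-19787268. Poisson intervals cover counting error only, and these regions were picked as the extremes of 30100.

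Hypermethylated and demethylated DNA at pH 7.0 were each set against CK. By fold over input, constitutive regions ranked higher in the treated DNA: the percentile in hypermethylated DNA minus CK had a median of 8.65 points, with 9785 regions (32.5%) at least 25 points higher and 3294 (10.9%) at least 25 points lower. Among all regions with a peak in both, these shares were 26.9% and 15.7%. For demethylated DNA minus CK the median was 10.8 points, with 10338 (34.3%) higher and 2605 (8.65%) lower, compared with 29.2% and 12.7% of all such regions.

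These directions did not hold against the other control. With fold over IgG the medians were -7.59 points for hypermethylated DNA minus CK and -4.65 points for demethylated DNA minus CK. By relative coverage they were 0.89 and 2.96 points. The median log2 ratio of relative coverage was -0.21 for hypermethylated DNA over CK, with 7.79 and 8.63 as the medians, and 11015 of 29981 regions (36.7%) were higher in hypermethylated DNA. For demethylated DNA over CK it was -0.56, with medians of 5.96 and 8.63, and 3651 regions (12.2%) were higher in demethylated DNA. Over all regions with a peak in both, these median log2 ratios were -0.20 for hypermethylated and -0.49 for demethylated DNA. Constitutive regions were thus close to the lists as a whole. Both comparisons use the same CK libraries, and the CK input level at these regions (2.17 times the background) enters every fold over input. An effect of methylation on the fold at constitutive regions cannot be told apart from these differences between controls. Relative coverage uses no control library, but each condition is a merged library with its own fragment length. The paper describes zebularine in DMSO for young seedlings, with DMSO-only controls, and also older seedlings from soil. Which of them gave CK was not established here. By either measure, an effect of methylation cannot be told apart from seedling age and DMSO in the demethylated comparison.

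Hypermethylated DNA was the stronger of the treatments at pH 7.0 and the weaker at pH 5.5 by relative coverage. At pH 7.0 the median was 7.79 in hypermethylated and 5.96 in demethylated DNA, with a median log2 ratio of 0.35, and 23855 regions (79.3%) were higher in hypermethylated DNA. The log2 ratio was 0.40 by fold over input and 0.46 by fold over IgG. At pH 5.5 the medians were 6.84 and 8.51, with a log2 ratio of -0.31, and 9884 regions (32.8%) were higher in hypermethylated DNA. By fold over IgG the log2 ratio at pH 5.5 was 0.04, so the direction at pH 5.5 depended on the control. Over all regions with a peak in both treatments, the median log2 ratio of relative coverage was 0.28 at pH 7.0 and -0.38 at pH 5.5. By this measure constitutive regions had the same direction as the lists as a whole.

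Constitutive regions were found along all 12 chromosomes at a similar density. There were between 73.7 regions per Mb on chromosome 1 and 88.4 per Mb on chromosome 12, with a mean of 81.4 ± 4.93 (SD, n = 12 chromosomes). They made up between 24.6% of the union regions on chromosome 1 and 28.8% on chromosome 12. The 3 longest chromosomes (1, 2 and 3, by the largest peak end) had the lowest densities, with 73.7, 76.3 and 74.8 regions per Mb. Union regions as a whole varied less, between 295 and 315 per Mb.

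Over 368 windows of 1 Mb, the number of constitutive regions had a median of 79.5 and ran between 38 and 140. The share of union regions that were constitutive ran between 14.6% and 39.1%. Both maxima fell on chr5:10000001-11000000, where 140 of 358 regions were constitutive. The windows next in number were on chromosome 7 at 10 to 11 Mb (128 of 352) and on chromosome 4 at 3 to 4 Mb (124 of 373). The fewest, 38 of 261, were on chr4:34000001-35000000, followed by chr3:1000001-2000000 with 45 of 239. The numbers of constitutive and of other union regions per window had a Spearman's rho of 0.20 over the 368 windows, a weak relation between values that share the same peak lists.

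Neighbouring constitutive regions were a median of 7274 bp apart (quartiles 2581 and 15664 bp), and 4142 of 30088 gaps (13.8%) were shorter than 1000 bp. The longest stretch without a constitutive region was chr11:12164923-12567313 (402391 bp), which held 30 other union regions. Next were chr4:9678820-9896720, with 59 other regions, and chr2:13607524-13779391, with 87. Within 1 Mb of a chromosome end there were 77.9 constitutive regions per Mb, and 26.3% of union regions there were constitutive, close to the 26.6% of the whole series. Assembly gaps and centromeres were not marked in the files.

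The strongest constitutive region, ranked by its lowest percentile over the 5 conditions, was chr5:10192301-10194372 (2072 bp), inside the richest 1-Mb window. Its summit had 246 fragments (216 to 279) in hypermethylated DNA at pH 5.5, 579 (533 to 628) at pH 7.0, 260 (229 to 294) in demethylated DNA at pH 5.5, 583 (537 to 632) at pH 7.0 and 445 (405 to 488) in CK. The fold over input was 23.9, 46.7, 29.0, 37.8 and 31.2 in the same order. All 5 summits fell within 10 bp, and the input level was at background in every list. Relative coverage was higher at pH 7.0 than at pH 5.5 in both treatments, with 26.3 at pH 5.5 and 50.7 at pH 7.0 in hypermethylated DNA and 32.5 and 40.4 in demethylated DNA. The fold over IgG was 20.4 and 41.8 in hypermethylated DNA and 33.7 in demethylated DNA at pH 7.0, but 6.26 in demethylated DNA at pH 5.5 and 4.18 in CK. The site was thus strong in all 5 conditions against input, and much less so against the IgG libraries of the last 2 conditions.

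The second region, chr1:27133554-27134587, had folds of 29.8, 25.3, 17.2, 17.9 and 10.9 in the same order of conditions. Its 5 peaks shared 806 of 1034 bp and their summits lay within 20 bp. The input level was between 1.03 and 1.08 times the background in the treated conditions and 2.66 in CK, and the relative coverage was between 20.5 and 33.7 in the treated conditions and 30.8 in CK.

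Next came chr4:15162792-15163225, a narrow region with 434 bp in all and summits within 15 bp. It had folds of 18.5, 31.6, 23.0, 16.5 and 18.8. Its relative coverage was 34.2 in both hypermethylated DNA at pH 7.0 and CK.

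Among the 10 strongest regions, the lowest fold in any condition was 9.17, in CK, and CK had the lowest fold of the 5 conditions in 7 regions. The highest fold was in hypermethylated DNA at pH 7.0 in 5 regions. The others of the 10 were chr2:17845955-17846610, chr2:18661429-18662345, chr12:3346480-3347109, chr3:24039236-24040632, chr4:5113072-5113923 and 2 regions near the end of chromosome 5. Outside chromosome 5, their summits lay within 46 bp in each case. On chr3:24039236-24040632, in contrast to most, CK had the highest fold, 27.4, with an input level at background.

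**Figure D5:**
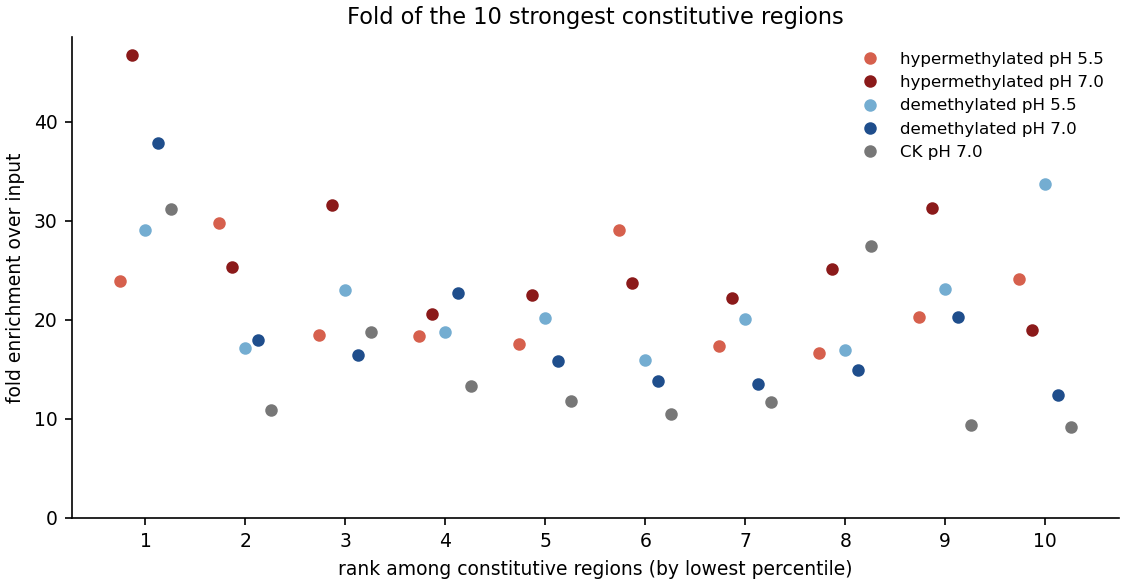
Fold enrichment over input (vertical axis) of the 10 constitutive regions with the highest minimum percentile, in rank order (horizontal axis), with 1 point per condition. All points lie at or above 9.17; CK (grey) is the lowest point in 7 regions, and region 8 is an exception with a CK fold of 27.4.

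Of the strongest regions of the 12 chromosomes, 6 were among these 10. For chromosomes 6 to 11 they were chr6:19807494-19809329, chr7:9916187-9917806, chr8:6158680-6159724, chr9:180239-180801, chr10:8488217-8489788 and chr11:28745081-28746849. Over the 12 chromosomes their folds ran between 8.84 and 46.7, and their summits spanned between 10 and 94 bp. CK had the lowest fold in 6 of the 12 and the highest in 2. In chr6:19807494-19809329 the CK fold was 33.2, the highest fold of any constitutive region in CK.

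The end of chromosome 5 held the widest constitutive regions. The widest of all, chr5:29828029-29845668 (17640 bp), was also the fourth strongest. It contained 3 peaks in hypermethylated DNA at pH 5.5, 1 at pH 7.0, 11 in demethylated DNA at pH 5.5, 1 at pH 7.0 and 4 in CK, and 13179 bp were in a peak of all 5 conditions. Its summits had 413, 728, 380, 817 and 624 fragments, with input levels between 2.3 and 3.66 times the background. The list of widest regions was followed further after their values were seen: the next widest, chr5:29924698-29934442 (9745 bp) and chr5:29883886-29893139 (9254 bp), lay in the same stretch. Of 38 constitutive regions over 5000 bp, 5 were on chr5:29803498-29934442, and the 15 constitutive regions there covered 69.9 kb, or 53.4% of the stretch. It begins with chr5:29803498-29811160, the last of the 10 strongest regions. The summits of that region spanned 5337 bp, so its conditions peaked at different places. Its input level was 15.9 times the background in hypermethylated DNA at pH 5.5 and 19.7 at pH 7.0. It was 5.43 in demethylated DNA at pH 5.5, 11.7 at pH 7.0 and 1.97 in CK.

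The 5 weakest constitutive regions, those whose highest percentile was lowest, were chr9:4731311-4731709, chr12:20632778-20633319, chr12:20528462-20529221, chr12:20610939-20611719 and chr1:33585514-33585811. On chr9:4731311-4731709 the summit had 392, 383, 433, 552 and 419 fragments in the usual order, with a fold of 2.12, 1.65, 2.20, 1.53 and 1.55, since the input was between 19.7 and 24.9 times the background. These fragment numbers exceed the medians of all constitutive regions in every condition. A very high input was not general among weak regions: the 73 regions at percentile 25 or less in all 5 conditions had median input levels of 1.28 in hypermethylated DNA at pH 5.5, 1.19 at pH 7.0, 1.41 in demethylated DNA at pH 5.5, 1.42 at pH 7.0 and 1.83 in CK.

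An input level of at least 5 times the background in all 5 conditions was present in 59 constitutive regions (0.20%). They were unevenly placed: 22 lay on chr12:20501510-20928821, 6 on chr1:33517188-33585811 and 5 on chr9:4678599-4731709. Their median fold was 4.31 in hypermethylated DNA at pH 5.5, 4.78 at pH 7.0, 3.33 in demethylated DNA at pH 5.5, 3.20 at pH 7.0 and 2.98 in CK, with relative coverage between 59.3 and 64.9. Their median percentile of fold was 52.7, 51.4, 12.7, 37.4 and 31.1 in the same order. The copy number of these stretches in the sequenced DNA was not measured in the files.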

How the data were processed

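Per the labels, the series has 17 iM-IP-seq libraries of rice DNA (10 IPs with iMab, 5 IPs with IgG, 2 inputs). The authors aligned the reads with BWA to MSU v7.0, used SAMtools and Picard, pooled the 2 IPs of each condition and ran MACS2 2.1.1 at a q-value threshold of 0.05. The 10 deposited peak lists give positions, summits, fold enrichment (a ratio of pileup to local control level) and −log10 p-values. They also give a score deposited by the authors, the −log10 q-value, which adjusts the p-value over the genome.

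Union regions were formed with Python 3.11.15 and pandas 2.3.3. MACS2 derives fold and p-value from the same pileup and control level under a Poisson model, and both were solved for whole fragments with SciPy 1.17.1 (tolerance 0.005 on −log10 p, or 0.0001 of its value if larger). At least 99.65% of the peaks in each list had a solution. At summits present in both lists of a condition, the 2 solutions were equal at 99.3% or more. In CK the IP had been scaled to 0.489 of its fragments against input and to 0.910 against IgG, and in demethylated DNA at pH 5.5 to 0.598 against IgG. The solver was tested on simulated data and the overlaps against bedtools 2.31.1. Wilson and exact Poisson intervals (95%) cover counting error only, since merged IPs give no replicate error and PCR reads are not independent molecules.

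Members, rules and alternatives were chosen with earlier results of these data known. Named regions were the 10 with the highest minimum percentile, the 5 whose highest percentile was lowest, the 5 largest pH shifts in each direction by the smaller shift of both treatments, the strongest of each chromosome and the widest. Coordinates are on MSU v7.0 and 1-based, with 1 added to each deposited start. Sequence composition and gene annotation were not analysed here, because no genome of that build was used.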

Additional observations from a re-analysis of the deposited data

Results flagged for a closer look

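The pH effect on relative coverage at constitutive regions had opposite directions in the treatments. The median log2 ratio of pH 5.5 over pH 7.0 was -0.15 in hypermethylated DNA and 0.54 in demethylated DNA. Each side is 1 merged library, so the difference was not tested. Over all regions with a peak at both pH, the medians were -0.07 and 0.65.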

How the results depend on the processing

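No paired analysis was possible because the replicates of each condition were merged before peak calling and the lists carry no replicate number. For the same reason no replicate could be left out. Of 72 values under other settings, 35 stayed close to the value given, 35 moved and 2 reversed. The number of constitutive regions (30100) fell to 9517 when only peaks of fold 4 or more were kept, and to 5034 when each condition was limited to its top 20000 peaks. It lay between 26232 and 37519 under the other settings, with the highest value when demethylated DNA at pH 5.5 was left out and the other 4 conditions were required. With fold over IgG, the median percentile of hypermethylated regions was 75.3 at pH 5.5 and 73.4 at pH 7.0, that of demethylated regions 68.1 and 74.96, and that of CK 79.7. With −log10 q-values CK had 65.2. With relative coverage, which was added after the data were seen, they were 72.4 for hypermethylated DNA at pH 7.0, 71.3 (pH 5.5) and 74.5 (pH 7.0) for demethylated DNA, and 67.8 for CK. The median pH shift was 1.99, 0.74 and 0.60 points in hypermethylated DNA with fold over IgG, −log10 q-values and relative coverage, and -4.03 in demethylated DNA with fold over IgG. With fold over IgG, 4401 regions shifted down in hypermethylated DNA, and 928 up and 1760 down in both treatments.

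The comparisons with CK changed most. Their medians reversed with fold over IgG, to -7.59 points for hypermethylated DNA and -4.65 points for demethylated DNA. They were 3.08 and 6.10 points with −log10 q-values, and 0.89 and 2.96 points with relative coverage. For hypermethylated DNA minus CK, 5240, 6278 and 4628 regions were at least 25 points higher with fold over IgG, −log10 q-values and relative coverage, and 7272 and 2121 were lower with fold over IgG and relative coverage. For demethylated DNA minus CK the numbers were 5081, 6839 and 4908 higher and 5820, 1724 and 1167 lower, in the same order. The cause was not tested. The median summit span was 67 bp in regions with 1 peak per condition. The planned settings for sequence composition (2) and annotation (1) were not run, since they need the genome of MSU v7.0.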
